A study of Homo sapiens with 4 samples.

Results

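Heat-shock proteins, DNAJ co-chaperones and the cytosolic chaperonin CCT were followed in an RNA immunoprecipitation sequencing (RIP-seq) experiment on QKI7, one of the protein isoforms made from QKI, a gene for an RNA-binding protein. The members were the 97 rows, of 26830 gene rows, whose symbol begins with HSP90, HSPA, HSPB, HSPD, HSPE or HSPH, with DNAJA, DNAJB or DNAJC and a digit, or with CCT2 to CCT8, plus TCP1. The rule uses gene symbols only. By the RefSeq table, 84 of these rows are protein-coding, 7 are transcribed pseudogenes and 6 are long noncoding RNAs such as antisense partners. HSPBP1 and HSPBAP1 match by name alone: the first is a co-chaperone that binds HSP70 and the second a protein named for binding a small heat-shock protein.

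All 4 libraries came from U2OS, a human osteosarcoma line, infected with a lentivirus for 3 x Flag-QKI7 and kept as GFP-positive cells with no special treatment. The 2 groups were input RNA (no antibody, n = 2 libraries) and RNA recovered with a Flag antibody after ultraviolet cross-linking, lysis and sonication (Flag-RIP, n = 2 libraries). Both groups carry the tagged protein, and a precipitation from cells without it was not analysed here, so a difference between the groups holds whatever the antibody and beads recovered. Whether replicates 1 and 2 were separate cultures is not stated in the labels, and p-values cover only the spread between these libraries, possibly a technical one. The lysates are bulk material, in which fewer cells with a transcript and less RNA per cell cannot be told apart.

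Chaperones help other proteins fold, refold or assemble. HSP70 proteins bind exposed hydrophobic stretches of a client in a cycle driven by ATP, DNAJ (HSP40) proteins deliver clients and stimulate the ATPase, and HSP90 acts later on kinases and receptors. CCT, also called TRiC, is a double ring of 8 related subunits that encloses actin, tubulin and other clients, many of which it receives from prefoldin. Mitochondria have their own chaperonin, HSP60 with its lid HSP10, and small heat-shock proteins hold unfolded proteins without ATP. Heat and other stress raise many of these genes through the transcription factor HSF1, which binds heat-shock elements made of repeated GAA and TTC blocks.

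Because that element is the known mark of heat-inducible chaperone genes, it is shown here for 4 of the most abundant members, in capitals, as RefSeq gives the promoter in GRCh38.p14 on the gene's strand.
HSP90AA1, chr14:102087112-102087140, minus strand: gagggttcTTCCGGAAGGTTCgggaggct
HSP90AB1, chr6:44247823-44247851, plus strand: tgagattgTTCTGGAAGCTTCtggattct
HSPA8, chr11:123062171-123062199, minus strand: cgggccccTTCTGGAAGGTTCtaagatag
HSPD1, chr2:197500060-197500088, minus strand: attttctgGAAAGTTCTGGAAccgagcga
The motif searched was GAANNTTCNNGAA on both strands (TTCNNGAANNTTC on the other), from 250 bases before to 50 after each start site, and overlapping matches were counted as one promoter. It was found for 7 of 81 member genes with a promoter in the table (8.64%), against 0.608% of the 27305 genes that have one. The 7 were HSP90AA1, HSP90AB1, HSPA6, HSPA8, HSPD1, DNAJA1 and DNAJB6. All 4 elements shown lie inside the annotated gene span, before a start site other than the outermost. A match in these letters is a description of the promoter, and its absence says nothing about HSF1.

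Values are TPM, a share of the library corrected for gene length, so levels of different genes can be set side by side, and no read depth is known behind them. Among the 97 rows, 43 reached 1 TPM in input replicate 1, 47 in input replicate 2, 65 in Flag-RIP replicate 1 and 63 in replicate 2. The median TPM over all tested genes stood at 1.29 and 2.01 in input, against 5.72 and 5.37 in Flag-RIP. Synthetic ERCC spike-in RNAs took 2.78% and 3.89% of input TPM and 18.9% and 25.6% of Flag-RIP TPM. As deposited, limma called 92.3% of the 10415 tested genes higher and 0.317% lower in Flag-RIP (adjusted p under 0.05), and 96.7% had both Flag-RIP values above both inputs. Changes below are therefore centred: each library's log2(TPM + 1) values were shifted to a common median. A change is Flag-RIP minus input in those units, and limma tested it against 0. The shift removed between the groups was 1.32, and the median change left over all tested genes was -0.11. The plain ratio of mean TPM is given beside the change, and its median over all tested genes was 3.31. The typical gene means these medians, so a change of 0 is not exactly typical. A row can lie below the typical gene on one scale and above it on the other. Of the osteoblast and mesenchymal markers COL1A1, SPARC, VIM and FN1 were above 1 TPM in input (4 of 11), while IBSP was listed at 0 in every library and SP7, ALPL and BGLAP were at a mean of 0.22 TPM or less in input. KRT8 and KRT18 were also present among 5 epithelial markers, and none of the 4 blood or 3 endothelial markers reached 1 TPM in input. In Flag-RIP the endothelial marker CDH5 was at 2.19 and 1.23 TPM and the other blood and endothelial markers stayed under 1. QKI was at 3.83 and 5.85 TPM in input and 60.7 and 42.0 in Flag-RIP, with transgene and endogenous reads not told apart.

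As deposited, tested chaperone transcripts were called higher in Flag-RIP in the same share as all tested genes, 92.3% of each, and after centring more of them were lower than higher. Of 52 tested members (averaging 1 TPM or more), 15 were lower and 2 higher in the centred fit (limma adjusted p under 0.05). Those shares are 28.8% and 3.85%, with each change tested against 0, not against the median change. The background over all tested genes was 24.4% lower and 16.4% higher, so the share of lower members lies near the background. The median centred change was -0.16 over the members and -0.11 over all tested genes. In plain TPM the members' median ratio was 2.56, and 44 of the 52 lay under the 3.31 of all tested genes. As deposited, 48 members were higher, the 92.3% above, and 0 lower, against 0.317% of all tested genes (limma; 0 lower also at an unadjusted p under 0.05). Of the 2 members called higher, HSPA12A passed the filter only through its Flag-RIP values. By family, the median changes were -0.96 for small heat-shock proteins, -0.57 for CCT, -0.40 for HSP70 with HSP110, -0.14 for DNAJB and DNAJC, -0.07 for DNAJA, -0.06 for HSP90 and 0.41 for the mitochondrial chaperonin, with 3 tested rows behind the first and 2 behind the last. Differences between families were not tested. No member kept a call without input replicate 1 (0 lower, 0 higher), and without input replicate 2 there were 5 lower and 0 higher. Over all genes the same omissions left 322 lower and 332 higher, and 987 and 747, against 2545 and 1703.

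**Figure D1:**
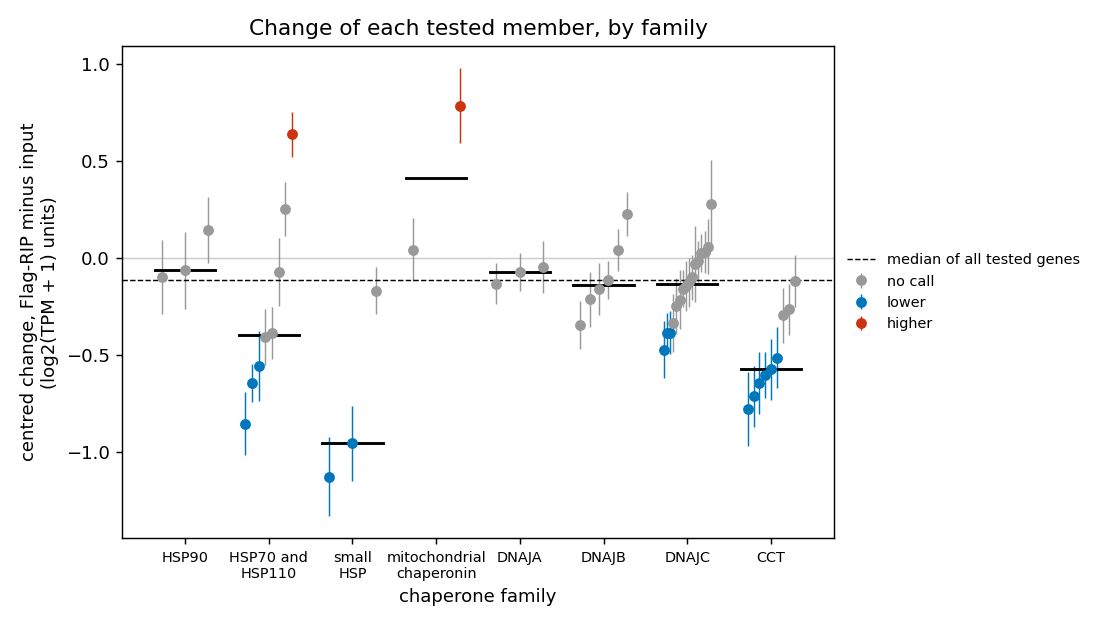
Centred change of each tested member, Flag-RIP minus input in log2(TPM + 1) units, by chaperone family, with its limma standard error; black bars are family medians and the dashed line is the median of all tested genes (-0.11). CCT and small heat-shock protein rows lie at or below that line, whereas HSP90, DNAJA and most DNAJB and DNAJC rows scatter around it.

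CCT stood lowest among the families with more than 3 tested members. All 9 tested rows lay below the median change of all tested genes, and 6 of the 9 passed the test as lower (66.7%, against 24.4% of all tested genes). Among genes of similar abundance the background was 20.3% lower at a mean of 5 to 20 TPM and 36.1% at 20 TPM and above. Of the 8 subunits that form the ring, 5 passed as lower and 3 did not pass, the other lower row being the pseudogene CCT6P3.

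CCT7, the eta subunit, was at 20.0 and 26.8 TPM in the inputs and 29.5 and 39.2 in Flag-RIP. All Flag-RIP values were above both inputs, but by a ratio of 1.47 only, the smallest of the family. Its centred change was -0.78 (SE 0.19, limma adjusted p = 0.016). CCT5, the epsilon subunit, was at 12.7 and 17.2 TPM in input and 22.1 and 26.3 in Flag-RIP, a ratio of 1.62 and, after centring, a change of -0.65 (SE 0.16, limma adjusted p = 0.016). CCT2, the beta subunit and the scarcest of the 8 in every library, was at 5.02 and 6.98 TPM in input and 10.1 and 10.7 in Flag-RIP. Its centred change was -0.60 (SE 0.12, limma adjusted p = 0.0071). CCT3, the gamma subunit, had 16.9 and 21.4 TPM against 30.7 and 34.5, and after centring a change of -0.57 (SE 0.16, limma adjusted p = 0.024). CCT6A, the zeta subunit, had 8.89 and 12.7 TPM against 17.6 and 21.1, and after centring a change of -0.51 (SE 0.16, limma adjusted p = 0.032).

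For these 5 subunits, and for CCT4 and CCT8, deposited values were higher in Flag-RIP and centred values lower, without overlap on either scale. Such separation was common. Of 10415 tested genes, 4930 were lower without overlap on the centred scale and 10074 higher without overlap as deposited. In size of change, CCT4, CCT8 and TCP1 lay closer to the typical gene. CCT4 (delta) had a centred change of -0.30 and CCT8 (theta) of -0.27, with limma adjusted p of 0.13 and 0.14. TCP1, the alpha subunit, was at 6.30 and 9.16 TPM in input and 18.0 and 19.6 in Flag-RIP, and its change of -0.12 was near that of all tested genes (limma adjusted p = 0.50). Its ratio of 2.43 was the highest of the family. The pseudogene row CCT6P3 had 0.89 and 1.02 TPM against 1.86 and 2.08, a change of -0.71 (SE 0.16, limma adjusted p = 0.010), and with CCT6P1 it resembles CCT6A, so the division of reads among the 3 is uncertain.

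The ring holds its subunits in equal number, but their transcript levels were unequal in every library. In both inputs it ran CCT7, CCT3, CCT5, CCT4, then CCT8 and CCT6A in either order, TCP1 and CCT2. The input ranges of neighbours in that order overlapped. In Flag-RIP replicate 1 CCT3 came before CCT7, CCT4 and CCT8 before CCT5, and TCP1 before CCT6A, while in Flag-RIP replicate 2 only CCT4 and CCT5 changed places. The highest subunit exceeded the lowest 3.98-fold and 3.84-fold in the inputs and 3.05-fold and 3.68-fold in Flag-RIP. Summed over the 12 rows of the family, TPM was 91.0 and 121.8 in input and 180.3 and 203.0 in Flag-RIP, a ratio of 1.80. The isoform CCT6B and the retrogene CCT8L2 were at 0.05 TPM or less in all libraries.

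**Figure D2:**
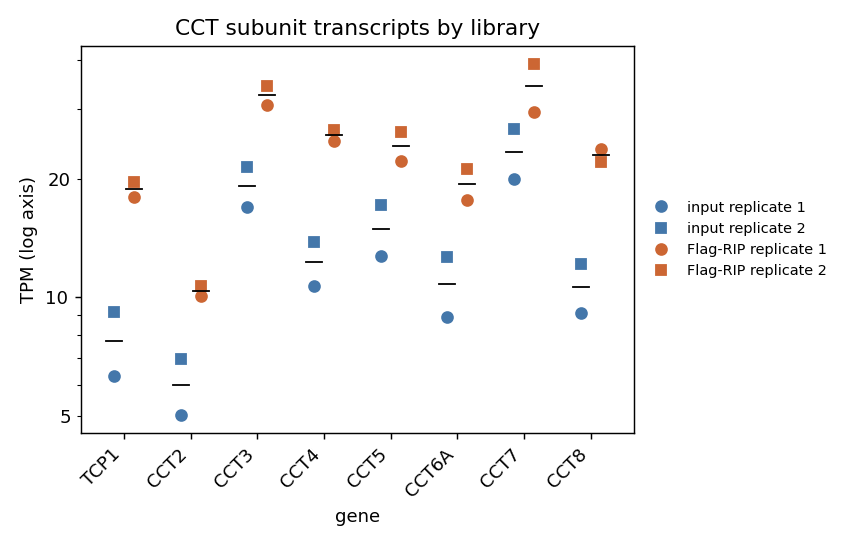
TPM (log axis) of the 8 CCT ring subunits in each library, with circles for replicate 1, squares for replicate 2 and bars at the group means. Every Flag-RIP value lies above both inputs, and the gap is narrowest for CCT7 (ratio 1.47) and widest for TCP1 (2.43).

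The lower CCT calls depended on the scale of the logarithm, the scaling of the libraries, the filter and single libraries. With a pseudocount of 0.1 all 9 rows passed as lower, against 25.4% of all tested genes. With a pseudocount of 5 only 1 did, against 33.4%, and with no filter on low genes 2 did, against 43.6%. After quantile normalization 3 passed, against 20.5% of all tested genes. Leaving out the 20 top rows by abundance, 2 passed, against 7.02%. With spike-in scaling all 9 passed, where 60.5% of all tested genes were lower. Relative to the median of all tested genes, the CCT median was -0.46 as reported, -0.50, -0.87 and -1.02 under these 3 scalings, and it turned to 0.039 when the pseudocount was 5 and to 0.081 without the filter. Without input replicate 1 none passed (limma, 6 lower at an unadjusted p under 0.05), without input replicate 2 only 1, and without Flag-RIP replicate 1 only 2.

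HSPB1 (HSP27), the stress-inducible small heat-shock protein, was the most abundant member in every library and among the least raised. It reached 114.6 and 146.3 TPM in the inputs, against 163.4 and 169.7 in Flag-RIP. The groups did not overlap, but the ratio was 1.28, and the centred change was -0.96 (SE 0.20, limma adjusted p = 0.0080). Abundant genes were less raised in general. At a mean of 20 TPM and above, all tested genes had a median ratio of 2.10 and a median change of -0.26, and 36.1% were lower. HSPB1 stood at rank 84 of all tested genes in mean input TPM and at rank 102 in Flag-RIP. Relative to HSP90AB1 it stood at 2.47 and 2.16 in input, against 1.30 and 1.23 in Flag-RIP (exact permutation p = 0.333, two-sided, the smallest that 2 against 2 libraries allow). The call of HSPB1 was lost with a pseudocount of 5 (limma adjusted p = 0.40), with no filter (0.17), after quantile normalization (0.23), and without input replicate 1 (0.056) or Flag-RIP replicate 1 (0.051). As deposited, HSPB1 was higher by 0.36 and did not pass (limma adjusted p = 0.22).

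HSPB11, now named IFT25 and a subunit of the intraflagellar transport complex, was the only tested member whose deposited values overlapped between groups. It had 1.10 and 1.03 TPM in input and 1.73 and 1.03 in Flag-RIP, and after centring a change of -1.13 (SE 0.20, limma adjusted p = 0.0052), the lowest of all members. HSPB8, a partner of the co-chaperone BAG3, had 0.73 and 1.19 TPM against 3.09 and 3.55 and did not pass (-0.17, limma adjusted p = 0.29). The other 6 small heat-shock rows were under 1 TPM in every library. CRYAB, a small heat-shock protein outside the symbol rule, was at 3.23 and 4.59 TPM in input and 9.50 and 9.54 in Flag-RIP, with a centred change of -0.20 that did not pass (limma adjusted p = 0.17).

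HSP70 and HSP110 members had calls in both directions, as all tested genes did. Of 8 tested rows, 3 were lower (37.5%, against 24.4% of all tested genes), 1 was higher (12.5%, against 16.4%) and 4 did not pass. HSPA5 (BiP), the HSP70 of the endoplasmic reticulum, was at 9.33 and 11.7 TPM in the inputs and 13.2 and 16.5 in Flag-RIP. With a ratio of 1.41 it had the lowest change of the HSP70 group, -0.85 (SE 0.16, limma adjusted p = 0.0059). HSPA8 (HSC70), the constitutive cytosolic form, was at 39.0 and 51.4 TPM against 72.1 and 81.2. At its abundance, a mean of 20 TPM and above, 36.1% of all tested genes were lower. The centred change of HSPA8 was -0.56 (SE 0.18, limma adjusted p = 0.041). This call was lost with the replicate number as a block (limma adjusted p = 0.084), after quantile normalization (0.25), with a pseudocount of 5 (0.89) or no filter (0.999), and without input replicate 1 (0.15) or 2 (0.11) or Flag-RIP replicate 1 (0.27) or 2 (0.053). HSPH1, the HSP110 that exchanges nucleotide on HSP70, was at 1.33 and 2.08 TPM in input and 3.27 in both Flag-RIP libraries, a change of -0.64 (SE 0.10, limma adjusted p = 0.0030).

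HSPA12A, a distant HSP70 relative, was the row called higher. It had 0.63 and 1.00 TPM in the inputs, against 6.80 and 5.28 in Flag-RIP, a ratio of 7.41, and the groups were well apart. The centred change was 0.64 (SE 0.12, limma adjusted p = 0.0052). Without input replicate 1 or input replicate 2 the change was 0.69 and 0.59 and did not pass (limma adjusted p = 0.072 in both), and scaled to the spike-ins it was 0.14 (limma adjusted p = 0.64). With an input mean of 0.815 TPM, HSPA12A passed the filter only through Flag-RIP, so as deposited it had to be higher there. HSPA9 (mortalin), the mitochondrial HSP70, had 5.31 and 7.82 TPM against 20.0 and 22.4 and a change of 0.25 that did not pass (limma adjusted p = 0.18).

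The heat-inducible HSPA1A was at 14.6 and 19.4 TPM in input and 34.3 and 30.7 in Flag-RIP, a change of -0.41 that did not pass (limma adjusted p = 0.056). The row may hold reads of its near-identical neighbour HSPA1B, which was not analysed here. HSPA13 had -0.39 (limma adjusted p = 0.052) and HSPA4, an HSP110 relative, -0.07 (limma adjusted p = 0.76). HSPA6, the most strictly stress-induced HSP70, was at 0.02 and 0.09 TPM in the inputs and 0.49 and 0.37 in Flag-RIP.

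The 3 tested HSP90 genes lay near the typical gene in centred change and none passed (limma, 0 also at an unadjusted p under 0.05). That nearness depended on the scale. Relative to all tested genes, the HSP90 median was 0.050 as reported, -0.38 with a pseudocount of 0.1 and 0.57 with 5. It was 0.22 after quantile normalization, -0.44 without the 20 most abundant rows, -0.65 scaled to the spike-ins and 0.61 with no filter. HSP90AB1, the constitutive cytosolic form, was at 46.4 and 67.7 TPM in the inputs and 125.8 and 138.3 in Flag-RIP, with a change of -0.10 (SE 0.19, limma adjusted p = 0.70). HSP90AA1, the inducible cytosolic form, was at 15.3 and 23.2 TPM against 40.2 and 53.4, with -0.06 (SE 0.20, limma adjusted p = 0.82). HSP90B1 (GRP94), the form of the endoplasmic reticulum, was at 9.95 and 14.4 TPM against 31.3 and 38.6, with 0.14 (SE 0.17, limma adjusted p = 0.52). As deposited, both cytosolic forms and HSP90B1 were clear of the inputs, at ratios of 2.31, 2.43 and 2.87. Each ratio lay under the 3.31 of the typical tested gene. The level of HSP90AB1 relative to HSP90AA1 was 3.04 and 2.92 in input and 3.13 and 2.59 in Flag-RIP, which overlap. The pseudogene rows HSP90AB4P (0.04 and 0.06 TPM against 1.00 and 1.98) and HSP90B2P (0.03 and 0.05 against 0.37 and 1.09) were below the test filter, and reads may have been divided between them and the parent genes.

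**Figure D3:**
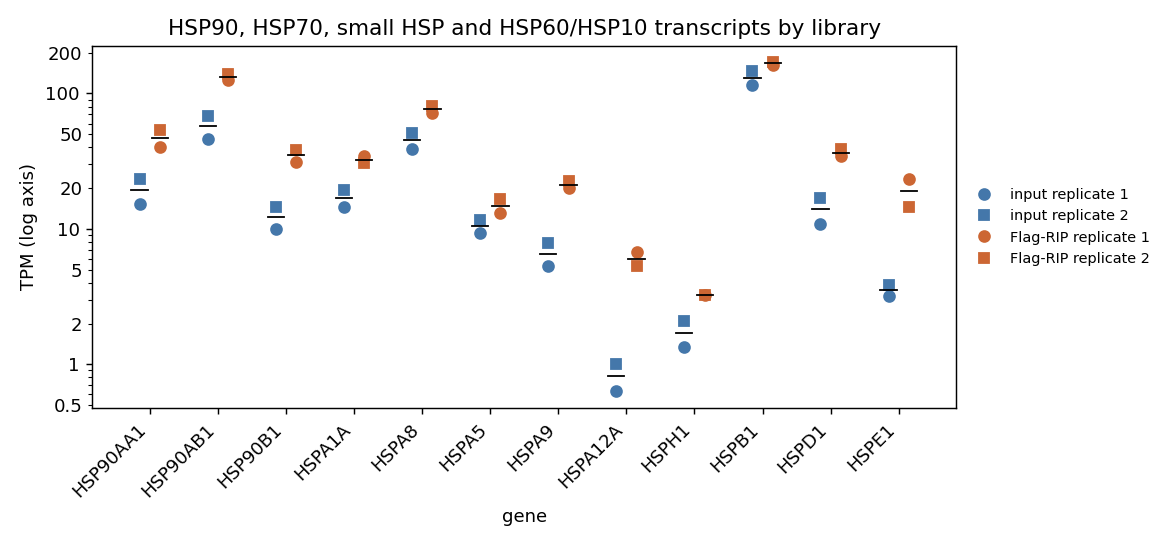
TPM (log axis) of HSP90, HSP70, HSP110, small heat-shock and mitochondrial chaperonin genes in each library, with circles for replicate 1, squares for replicate 2 and bars at the group means. The gap between input and Flag-RIP is small for HSPB1 (ratio 1.28) and HSPA5 (1.41) and wide for HSPE1 (5.36) and HSPA12A (7.41).

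The genes of the mitochondrial chaperonin, HSPD1 (HSP60) and HSPE1 (HSP10), are transcribed in opposite directions from start sites 105 bases apart on chromosome 2 (HSPD1 from 197486584 to 197500274, HSPE1 from 197500379 to 197503449, GRCh38.p14). HSPE1 was at 3.21 and 3.84 TPM in the inputs and 23.4 and 14.4 in Flag-RIP. It rose by 0.78 (SE 0.19, limma adjusted p = 0.016), the largest centred increase of any member, although its Flag-RIP replicates lay far apart. HSPD1 was at 10.9 and 16.9 TPM in the inputs and 34.6 and 38.6 in Flag-RIP, a change of 0.04 (limma adjusted p = 0.85). Relative to HSPD1, HSPE1 stood at 0.295 and 0.227 in input, against 0.676 and 0.374 in Flag-RIP, with no overlap (exact permutation p = 0.333, two-sided). The rise of HSPE1 was lost with a pseudocount of 0.1 (limma adjusted p = 0.081), scaled to the spike-ins (-0.32, limma adjusted p = 0.37) and without input replicate 1 (0.093) or 2 (0.12). The readthrough row HSPE1-MOB4 was listed at 0 in all libraries.

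The DNAJ co-chaperones, the largest group, stayed near the typical gene in centred change. In plain TPM, 3 of 3 DNAJA, 5 of 6 DNAJB and 13 of 16 DNAJC rows had a ratio under its 3.31. Relative to all tested genes, the DNAJA, DNAJB and DNAJC medians were 0.039, -0.025 and -0.023 as reported. With a pseudocount of 0.1 they were -0.30, -0.30 and -0.18, and with 5 they were 0.14, 0.16 and 0.020. Scaled to the spike-ins they were -0.43, -0.43 and -0.23. None of the 3 DNAJA and 6 DNAJB rows passed (limma, with 0 and 1 lower and 0 higher at an unadjusted p under 0.05). DNAJA1, a farnesylated partner of HSC70, was at 5.88 and 8.94 TPM in the inputs and 18.6 and 19.4 in Flag-RIP, with a centred change of -0.05 (limma adjusted p = 0.80). DNAJA2 had -0.07 and the mitochondrial DNAJA3 had -0.13, with limma adjusted p of 0.57 and 0.34. DNAJB1, the stress-inducible HSP40, was at 6.31 and 8.49 TPM against 16.1 and 14.6, with -0.35, and did not pass (limma adjusted p = 0.054). DNAJB5 lay at the other end, with 2.91 and 4.48 TPM against 12.5 in both Flag-RIP libraries and a change of 0.23 (limma adjusted p = 0.14). DNAJB2, DNAJB6, DNAJB11 and DNAJB12 lay between -0.21 and 0.04.

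Of 16 tested DNAJC rows, 3 were lower (18.8%, against 24.4% of all tested genes) and none higher. DNAJC4 was at 2.73 and 3.72 TPM in the inputs and 6.94 and 7.04 in Flag-RIP, a change of -0.39 (SE 0.10, limma adjusted p = 0.022). DNAJC10, a disulfide reductase of the endoplasmic reticulum, had 1.05 and 1.62 TPM against 3.23 and 3.62, also -0.39 (SE 0.11, limma adjusted p = 0.029). DNAJC22 had 0.54 and 0.83 TPM against 2.07 and 1.96, with -0.47 (SE 0.15, limma adjusted p = 0.034). In plain TPM their ratios were 2.17, 2.57 and 2.94, under the 3.31 of the typical tested gene, and each lost its call without input replicate 1 and without input replicate 2. DNAJC4 kept it in 9 of 15 alternatives, DNAJC10 in 8 of 14 and DNAJC22 in 7 of 14. Without the 20 most abundant rows DNAJC10 and DNAJC22 turned to 0.093 and 0.27, and with no filter each of the 3 turned positive. Adding 1 TPM compresses changes of rows as low as DNAJC10 and DNAJC22, and DNAJC22 passed the filter only through Flag-RIP. The most abundant of the group, DNAJC9, a histone chaperone, was at 4.86 and 6.97 TPM against 13.7 and 15.1 and had -0.15 (limma adjusted p = 0.38). DNAJC8, a splicing-associated protein, had -0.03 and DNAJC1 -0.10, and neither passed.

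DNAJC24, which takes part in making diphthamide on elongation factor 2, is named after its values were seen. It was at 0.12 and 0.32 TPM in the inputs and 3.72 and 1.87 in Flag-RIP. The ratio of 12.7 was the largest of the tested members, yet the centred change was 0.28 and did not pass (SE 0.23, limma adjusted p = 0.35), since adding 1 to such low values compresses the change. With a pseudocount of 0.1 it was 1.45 (limma adjusted p = 0.023). Of the rows that match by name only, HSPBP1 was at 3.65 and 5.42 TPM against 7.63 and 7.2, a change of -0.69 (SE 0.11, limma adjusted p = 0.0030). HSPBAP1 had -0.20 and did not pass (limma adjusted p = 0.34).

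Among genes of the same abundance the members stood lower in plain ratio at each level. At a mean of 1 to 5 TPM, the 19 members had a median ratio of 3.04 and all 6418 genes 3.58. At 5 to 20 TPM, the 24 members had 2.41 and all 3252 genes 2.97. At 20 TPM and above, the 9 members had 1.92 and all 745 genes 2.10. In centred change the member medians at these levels were -0.17, -0.15 and -0.41, against -0.17, 0.065 and -0.26 for all genes. On that scale members and all genes were thus alike at 1 to 5 TPM. Across the 52 members, the log2 ratio was lower at higher log2 mean TPM (Pearson r = -0.46, Spearman rho = -0.51), as it was across all 10369 tested genes with a ratio above 0 (-0.26 and -0.27). These correlations are across genes that share libraries, and the mean includes the values of the ratio. In centred change the relation over the members was -0.08 (Pearson) and -0.02 (Spearman), weaker than for the plain ratio and of the same sign. Over all tested genes it was 0.12 and 0.24, the sign opposite to that of the plain ratio.

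**Figure D4:**
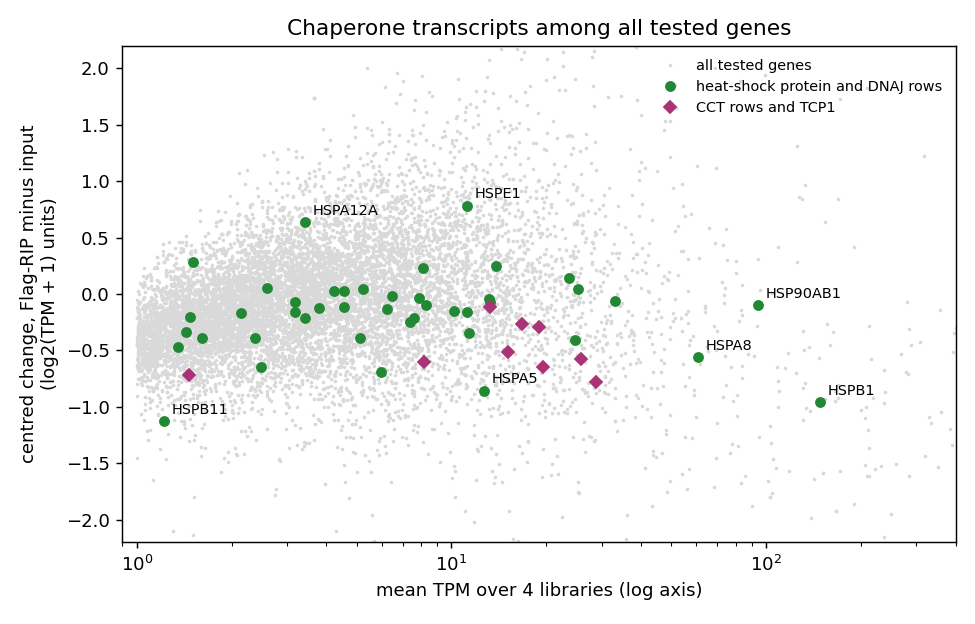
Centred change (log2(TPM + 1) units) against mean TPM over the 4 libraries (log axis) for all tested genes (grey), heat-shock protein and DNAJ rows (green circles) and CCT rows with TCP1 (purple diamonds); 88 genes, none of them a member, lie outside the plotted range. HSPA12A and HSPE1 lie above the other members, and HSPB1, HSPA5 and HSPB11 near the bottom of the cloud.

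The other 45 rows were below the filter, with mean TPM of 0.98 (DNAJC3, the co-chaperone P58IPK, at 0.23 and 0.42 TPM in input and 1.95 and 1.33 in Flag-RIP) down to 0. HSPB11, at a mean of 1.22, was the nearest row above it. Of these 45, 4 were listed at 0 in every library, namely DNAJA1P5, DNAJB3, DNAJC5B and HSPE1-MOB4. Both Flag-RIP values were above both inputs in 33 of the 45. The share over all gene rows below the filter was not computed, so this count is not a result about chaperones. Of the tested members, 8 had an input mean under the filter and passed only through Flag-RIP, namely CCT6P3, DNAJC22, DNAJC24, DNAJC30, HSPA12A, HSPA13, HSPB8 and HSPBAP1. Such rows had to be higher there as deposited, so no count over tested rows describes all 97. The DNAJ antisense and divergent rows stayed at 0.50 TPM or less.

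A wider list of 57 genes of the chaperone network (co-chaperones, prefoldin, mitochondrial and endoplasmic reticulum chaperones and HSF factors) had 56 rows, of which 52 were tested. In the centred limma fit 17 were lower and 5 higher (32.7% and 9.62%, against 24.4% and 16.4% of all tested genes), with a median change of -0.25. Prefoldin, which hands unfolded actin and tubulin to CCT, was divided. PFDN6 was at 3.68 and 3.70 TPM in the inputs and 43.1 and 37.1 in Flag-RIP, a ratio of 10.9 and a change of 1.81 (SE 0.16, limma adjusted p = 6.9e-04). With spike-in scaling the change of PFDN6 was 0.66, short of the threshold (limma adjusted p = 0.074). PFDN5, the most abundant subunit in input, was at 20.8 and 21.1 TPM against 25 and 29.6, a change of -0.95 (SE 0.19, limma adjusted p = 0.0073). PFDN6 thus went from 0.177 and 0.176 of the PFDN5 level in input to 1.72 and 1.26 in Flag-RIP (exact permutation p = 0.333, two-sided). PFDN6 and PFDN5 had been called in opposite directions, so this separation adds no support to those calls. Among the remaining subunits, PFDN1 rose by 0.47 (limma adjusted p = 0.021), PFDN2 had 0.25 and VBP1 -0.11 without passing, and PFDN4 was below the filter. These subunits were named to complete the complex, after their values were seen.

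CANX and CALR, the membrane-bound and soluble lectin chaperones of the endoplasmic reticulum, also parted. CANX was at 8.56 and 12.9 TPM in the inputs and 52.0 and 41.1 in Flag-RIP, a rise of 0.72 (SE 0.16, limma adjusted p = 0.011). CALR was at 40.9 and 52.3 TPM against 91.2 and 94.5, and its change of -0.33 did not pass (limma adjusted p = 0.17). The level of CANX relative to CALR was 0.210 and 0.246 in input and 0.571 and 0.435 in Flag-RIP (exact permutation p = 0.333, two-sided). TTC1, a co-chaperone that binds HSP70 and HSP90, rose by 0.70 (limma adjusted p = 0.0031). PDCD5, a CCT-binding protein, and CLPP, the mitochondrial protease, were lower by centred changes of -0.93 and -0.90 (limma adjusted p = 0.0036 and 0.0018). HSF1 itself was at 16.4 and 25.3 TPM in input and 43.5 and 43.7 in Flag-RIP, with a change of -0.26 that did not pass (limma adjusted p = 0.23). Without input replicate 1 the list had 1 higher and 1 lower call, and without input replicate 2 it had 3 and 5. Scaled to the spike-ins it had 0 higher (limma, 0 also at an unadjusted p under 0.05) and 40 lower, where 3.06% of all tested genes were higher and 60.5% lower.

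**Figure D5:**
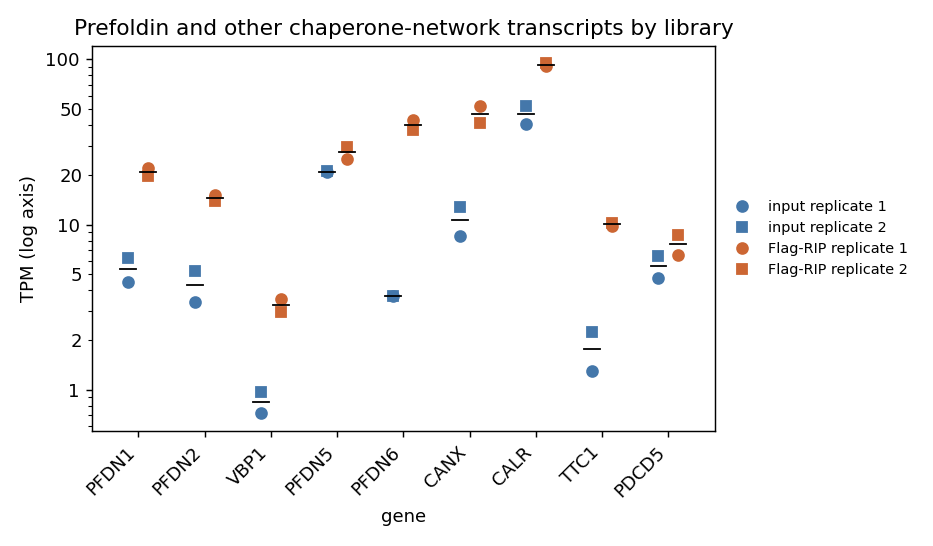
TPM (log axis) of prefoldin subunits and other chaperone-network genes in each library, with circles for replicate 1, squares for replicate 2 and bars at the group means. PFDN6 goes from below PFDN5 in input (ratio 0.177 and 0.176) to above it in Flag-RIP (1.72 and 1.26), while the Flag-RIP over input ratios of PFDN5 and PDCD5 are 1.31 and 1.36.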

How the data were processed

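RNA from 2 input and 2 Flag-RIP libraries of U2OS cells was measured by RNA sequencing. The authors deposited TPM values, a column for each library. Their tools were STAR and RSEM 1.2.31, on the GRCh38 build, per the submitters' processing notes. Gene models, filtering and strandedness of counting were not given in the sources used here, so reads of a gene and its antisense row cannot be told apart. The 92 ERCC rows were left out of the tests. Genes averaging 1 TPM or more were tested with limma 3.58.1 (R 4.3.3) by lmFit and a trended eBayes, on log2(TPM + 1) values shifted to a common library median. Tests were two-sided, with Benjamini-Hochberg adjustment over 10415 genes, a threshold of 0.05 and 2 residual degrees of freedom. The scale understates the change of low genes. The procedure was tested on simulated data, in 5 runs with 200 changed genes each. Far more genes were called in the real data, so the simulation does not check the centring under such wide change.

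All members were matched to RefSeq genes, 94 by symbol and 3 by a synonym. The members, lists and named genes were chosen with earlier results of these data known. The same holds for the gene pairs set in ratio to each other, so separation of a ratio adds no support to the calls. Any tested member could be named in a family of at most 12 tested rows. In DNAJC these were the 3 most abundant members and the 4 largest calls in each direction that did not overlap, and in the wider list the 3 largest calls in each direction and the 3 most abundant. Alternatives covered scaling, pseudocount, filter, variance model, replicate block and leaving out each library.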

Additional observations from a re-analysis of the deposited data

How the results depend on the processing

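The mitochondrial chaperonin had the highest family median under each setting run, and small heat-shock proteins and CCT the lowest except with a pseudocount of 5 or no filter. The median over all tested genes was -0.11 as reported, 1.2 as deposited, 0.45 without the 20 most abundant rows and -0.76 when scaled to the spike-ins. As deposited, 48 members were higher and 0 lower, against 92.3% and 0.317% of all tested genes (limma, 0 lower also at an unadjusted p under 0.05), and the medians were 1.25 for HSP90, 0.92 for HSP70 with HSP110, 0.36 for small heat-shock proteins, 1.73 for the mitochondrial chaperonin, 1.24 for DNAJA, 1.18 for DNAJB and DNAJC and 0.74 for CCT. The lower calls among named genes turned positive, at 0.71 for CCT2, 0.74 for CCT3, 0.67 for CCT5, 0.80 for CCT6A, 0.60 for CCT6P3, 0.54 for CCT7, 0.46 for HSPA5, 0.76 for HSPA8, 0.36 for HSPB1, 0.19 for HSPB11, 0.62 for HSPBP1, 0.67 for HSPH1, 0.84 for DNAJC22, 0.93 for DNAJC4 and DNAJC10, 0.36 for PFDN5, 0.38 for PDCD5 and 0.42 for CLPP, since no median was removed. Scaled to the spike-ins, 0 members were higher (limma, 1 at an unadjusted p under 0.05) and 47 lower, against 319 and 6306 of all 10415 tested genes, with medians of -1.41 (HSP90), -1.33 (HSP70 with HSP110), -1.51 (small), -0.80 (mitochondrial), -1.19 (DNAJA and DNAJB), -0.99 (DNAJC) and -1.77 (CCT), and HSPE1, CANX and TTC1 turned to -0.32, -0.58 and -0.16. Without the 20 most abundant rows 4 were higher and 6 lower, against 3748 and 730 of all 10402 tested genes, where 1703 were higher and 2545 lower as reported, with medians of 0.61 (mitochondrial), 0.11 (DNAJA), 0.10 (DNAJB), 0.26 (DNAJC) and -0.43 (CCT), and DNAJC22 and DNAJC10 turned to 0.27 and 0.093. After quantile normalization the small heat-shock median was -0.27. With a pseudocount of 0.1 the medians were -0.42 (HSP90), -1.36 (small), 0.17 (mitochondrial), -0.34 (DNAJA), -0.35 (DNAJB) and -0.86 (CCT). At that pseudocount 21 members were lower (40.4%, against 25.4% of all tested genes). With a pseudocount of 5, 6 members were higher, against 22.6% of all tested genes, the medians were 0.50 (HSP90), 0.078 (HSP70 with HSP110), -0.32 (small), 0.64 (mitochondrial), 0.066 (DNAJA), 0.093 (DNAJB) and -0.033 (CCT), and HSPA8 turned to 0.044. With no filter 16 were higher and 24 lower of 93 members tested, against 5590 and 10238 of all 23463 tested genes, the medians were 0.46 (HSP90), -0.56 (small), 0.97 (mitochondrial), 0.45 (DNAJA), 0.069 (DNAJB), 0.17 (DNAJC) and -0.069 (CCT), and CCT6A, DNAJC22, DNAJC4 and DNAJC10 turned to 0.043, 0.084, 0.17 and 0.17. At a mean of 5 TPM or more, 1 member was higher (3.03%, against 25.6% of all tested genes) and the DNAJA median was -0.15. With 1 library left out, 0 to 3 members were higher and 0 to 18 lower, and the medians ran from -0.68 to -0.46 for CCT and from -0.13 to -0.049 for DNAJA. Beyond the as-deposited reversals, whose construction shows the cause, the cause was not tested.

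All 17 called members kept their direction when any 1 library was left out, but 0 kept the call without input replicate 1 (limma, with 2 members higher and 12 lower at an unadjusted p under 0.05), 5 without input replicate 2, 11 without Flag-RIP replicate 1 and 16 without Flag-RIP replicate 2. Without the variance trend, or with robust fitting, all 17 kept it. With the replicate block 16 kept the call (14 lower and 2 higher), HSPA8 being lost. Across genes, the difference between the inputs and that between the Flag-RIP libraries were hardly correlated (r = -0.067). With 2 libraries in each group, that value cannot show whether same-numbered libraries were paired. The main fit left the numbers out, and the replicate block is the alternative that uses them. Read depth is unknown, which limits what rows near 1 TPM can show.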
